A study of Mus musculus with 27 samples.

Results

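The genes described here are 9 steroid dehydrogenases and reductases of the mouse liver: Hsd3b2, Hsd3b3, Hsd3b5, Hsd11b1, Hsd17b2, Hsd17b6, Akr1c6, Akr1c14 and Srd5a1. They were taken by their GENCODE M21 symbol from the 43346 genes of the deposited count table, and all 9 had counts high enough to be tested. Their RNA was measured in hepatocytes, the main cell type of the liver, from female mice aged 12 weeks. The mice came from 9 inbred strains, PWK/PhJ, CAST/EiJ, WSB/EiJ, NZO/HlLtJ, NOD/ShiLtJ, DBA/2J, A/J, 129S1/SvImJ and C57BL/6J, with 3 libraries of each, which the labels call biological replicates. The labels give no treatment, transgene or deletion for any strain, and p-values measure the spread between these 27 libraries. The wider study also surveyed chromatin marks in these mice to set them beside genetic variation, and expression alone is described here.

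Steroid hormones are made in the adrenal glands and gonads, and the liver takes them up, interconverts their active and inactive forms and clears them. Dehydrogenases of the HSD families oxidise a hydroxyl group of the steroid or reduce a keto group, which can switch a hormone on or off, and aldo-keto reductases of the Akr1c family carry out similar reductions. The reductase Srd5a1 saturates a double bond in the steroid ring, which turns testosterone into the stronger androgen dihydrotestosterone and starts the breakdown of glucocorticoids. Several of these enzymes are known for a difference between male and female mouse liver, which is set by the daily pattern of growth hormone, and all mice here were female.

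All 9 genes differed among the strains, against 74.2% of the 14482 genes tested (edgeR quasi-likelihood F test over all 9 strains, Benjamini-Hochberg adjusted p under 0.05). The strain means, in CPM (counts scaled to the size of the library), differed most for Hsd3b5, whose highest strain had 71.9 times the level of its lowest. That ratio rests on 1 to 21 counts per library in WSB/EiJ, and on the log2 scale the difference was 6.44, or 7.29 without WSB/EiJ replicate 2 and 5.97 without replicate 4. The ratio of the highest to the lowest strain mean was 25.0 for Hsd3b2, 16.3 for Hsd3b3, 7.44 for Hsd17b6, 4.45 for Srd5a1, 3.03 for Hsd17b2, 2.98 for Akr1c6, 2.18 for Hsd11b1 and 1.96 for Akr1c14. The strain with the highest level was not the same from gene to gene: NOD/ShiLtJ led for Hsd3b2 and Hsd3b5, A/J for Hsd3b3 and Hsd17b6, WSB/EiJ for Hsd11b1, CAST/EiJ for Hsd17b2 and Srd5a1, and NZO/HlLtJ for Akr1c6 and Akr1c14. The median difference between the highest and the lowest strain mean was 2.13 on the log2 scale over the 9 genes and 1.17 over all genes tested.

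**Figure D1:**
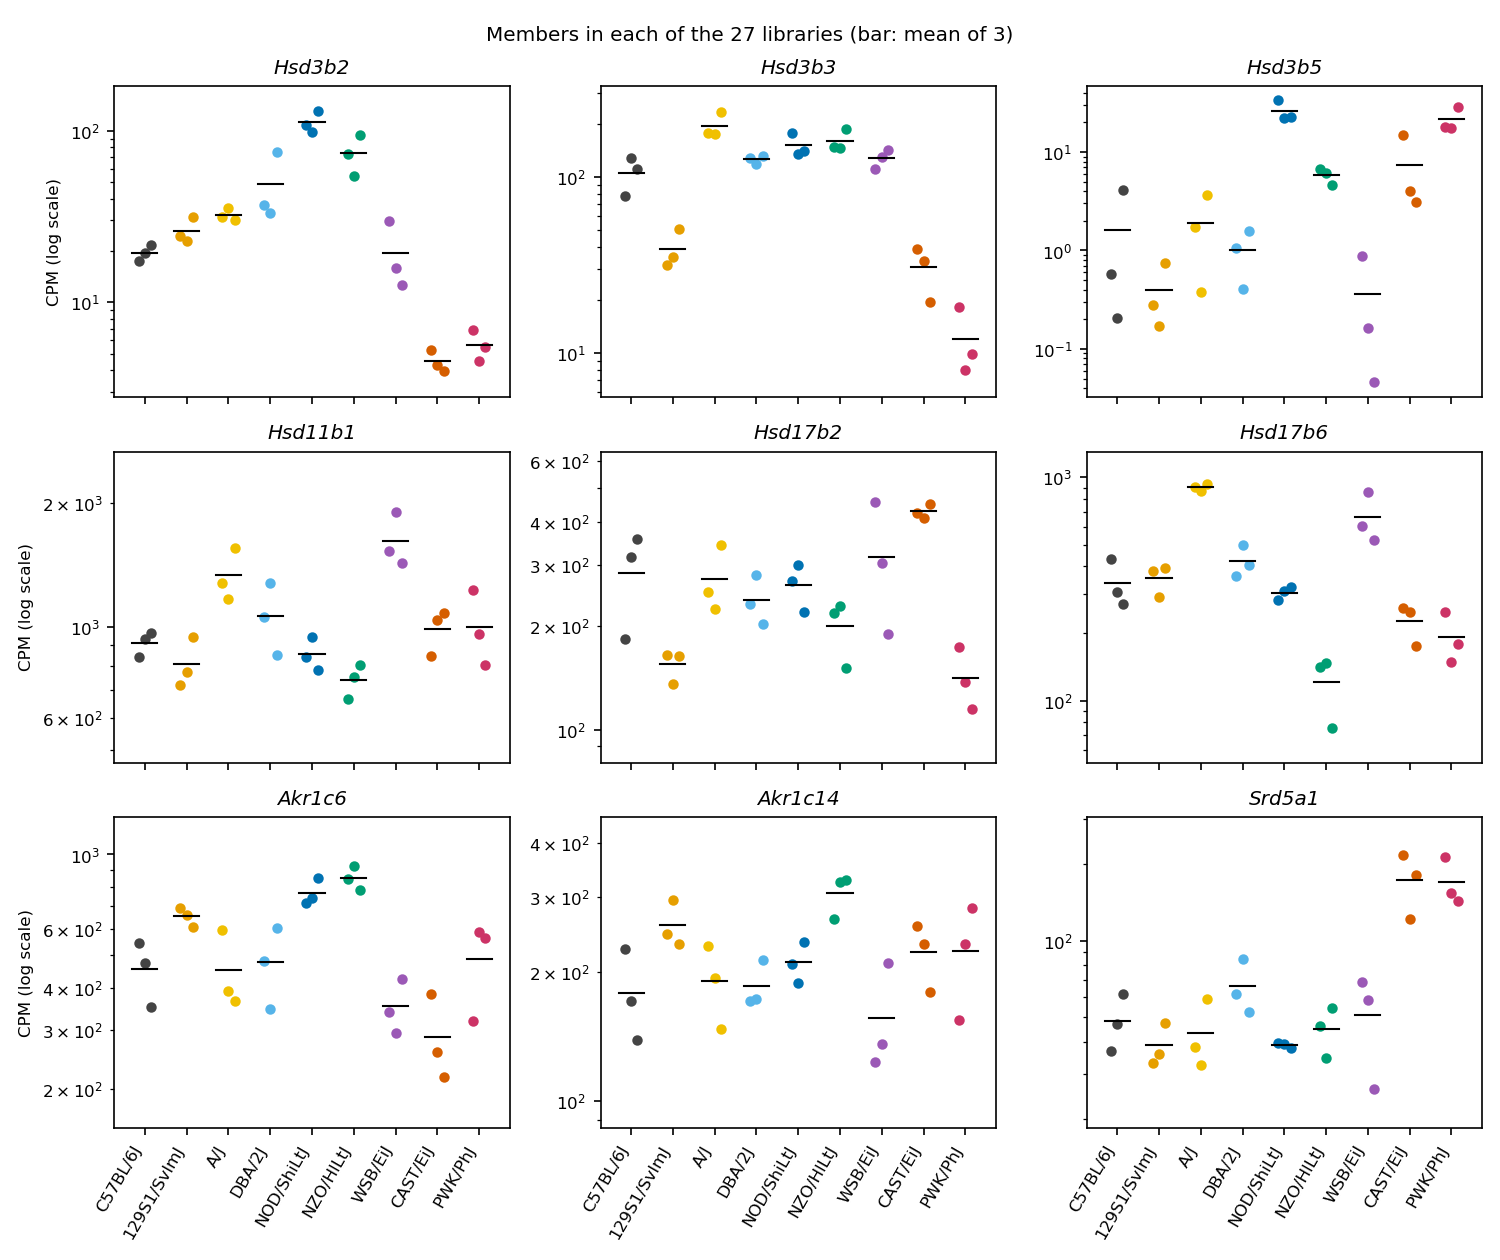
CPM of each of the 9 genes (log axis, with its own range for each gene) in the 27 libraries, grouped by strain; each point is a library and each bar the mean of 3. Hsd3b5 spans 0.0460 to 33.5 CPM and Akr1c14 123.1 to 328.8 CPM, and for Srd5a1 the CAST/EiJ and PWK/PhJ libraries lie above all others.

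Compared per length of transcript, the group was led by Hsd11b1, with a mean of 523.6 CPM per kb of its longest transcript over the 27 libraries. Akr1c6 followed at 381.0 CPM per kb, Hsd17b6 at 257.3, Hsd17b2 at 193.7 and Akr1c14 at 67.5. The lowest levels per kb were those of Srd5a1 at 28.4, Hsd3b3 at 22.1, Hsd3b2 at 10.3 and Hsd3b5 at 4.75. The 3 genes with the lowest levels per kb, all of the Hsd3b family, were also the 3 with the widest strain ratios, while Hsd17b6 was abundant and varied 7.44-fold.

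**Figure D2:**
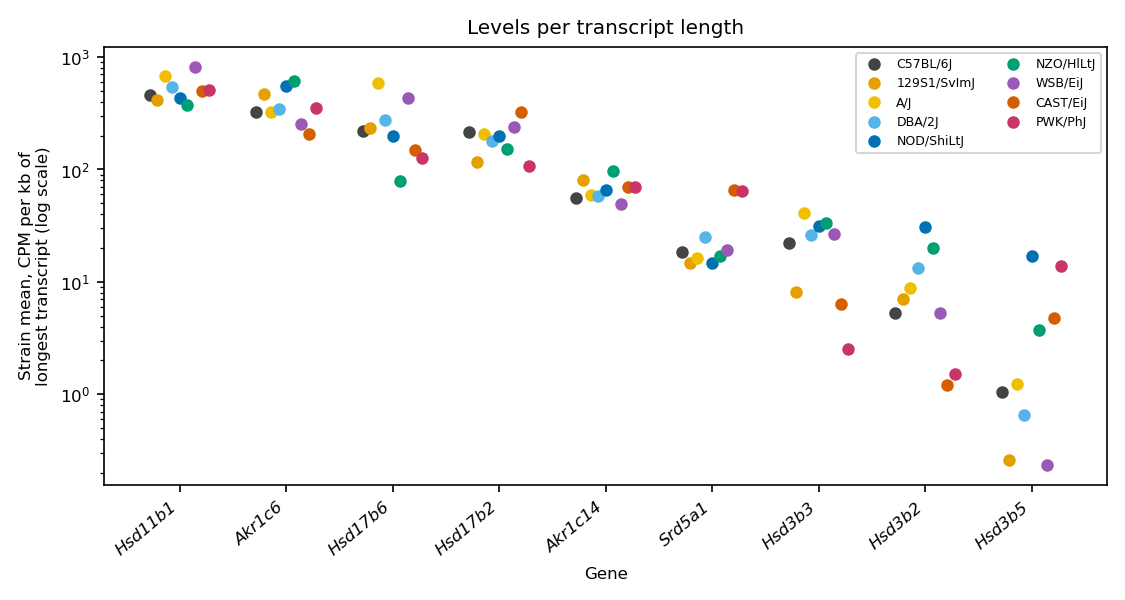
Strain means of the 9 genes in CPM per kb of the longest transcript (log axis), ordered from the most to the least abundant; each point is the mean of 3 libraries of a strain. Hsd11b1 lies between 374.9 and 817.8 CPM per kb, while Hsd3b5 falls below 1 CPM per kb in DBA/2J, 129S1/SvImJ and WSB/EiJ.

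The hepatocyte label was borne out by its markers: 10 hepatocyte genes, from albumin to Cps1, summed to between 127600 and 384800 CPM in every library. Markers of other liver cells were present at far lower sums, at 35.04 to 442.1 CPM for 10 Kupffer cell genes, 52.6 to 666.9 CPM for 10 endothelial genes and 31.1 to 192.8 CPM for 10 stellate cell genes. The sums were 1.57 to 9.64 CPM for 5 bile duct genes, 0.861 to 11.2 CPM for 6 lymphocyte genes and 2.19 to 36.6 CPM for 5 erythroid genes, and no listed gene was at 0 in all 27 libraries. The endothelial sum was highest in PWK/PhJ, at 200.6 to 666.9 CPM. Of the sums of these other cell types, the stellate sum correlated with Hsd11b1 (r = 0.632 over 27 libraries), the bile duct sum with Hsd3b5 (0.614) and the erythroid sum with Hsd3b2 (0.576). Akr1c14 correlated negatively with the stellate (-0.564), endothelial (-0.559), Kupffer (-0.515) and lymphocyte (-0.506) sums. These values are given as a description of libraries that share depth and scaling, and their part in the strain differences was not tested. In such bulk samples, fewer cells of a type cannot be told apart from less RNA per cell. Library totals ran from 17015956 to 35078511 estimated counts, so 1 count is a small part of a CPM and counting error is small for all 9 genes except Hsd3b5 in its lowest strains.

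Hsd3b2, Hsd3b3 and Hsd3b5 lie beside each other on chromosome 3, on the minus strand of GRCm38, at chr3:98709255-98724543, chr3:98741523-98763127 and chr3:98618634-98630252. Hsd3b2 (ENSMUSG00000063730) and Hsd3b3 (ENSMUSG00000062410) are of the type that oxidises and isomerises steroid precursors towards active hormones. Hsd3b5 (ENSMUSG00000038092) belongs to the branch known to act as a keto-steroid reductase that inactivates steroids, and is known as a male-predominant gene of the mouse liver. Over the 1119 bases of coding sequence in the reference, Hsd3b2 and Hsd3b3 were 95.1% identical, and Hsd3b5 was 80.3% identical to Hsd3b2 and 80.0% to Hsd3b3. A stretch of 90 coding bases at the same position in each gene is printed from the C57BL/6J reference (GRCm38) to show how far reads could tell these genes apart, with capitals where the 3 genes are not all the same:
Hsd3b2: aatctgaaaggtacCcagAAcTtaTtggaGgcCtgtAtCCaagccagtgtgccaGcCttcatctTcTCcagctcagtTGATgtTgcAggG
Hsd3b3: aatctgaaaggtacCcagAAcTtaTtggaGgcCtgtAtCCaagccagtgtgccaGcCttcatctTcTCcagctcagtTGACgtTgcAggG
Hsd3b5: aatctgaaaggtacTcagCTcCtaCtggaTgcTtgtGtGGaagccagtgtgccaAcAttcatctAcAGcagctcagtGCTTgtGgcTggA
In this window Hsd3b2 and Hsd3b3 differed at 1 base, while Hsd3b5 differed from Hsd3b2 at 21 and from Hsd3b3 at 22. Of all 75-base windows of its transcripts, 13.4% for Hsd3b2, 4.78% for Hsd3b3 and 11.7% for Hsd3b5 were also found in another gene, and the deposited counts were not whole in 27, 27 and 18 of the 27 libraries. Their levels are therefore uncertain to the extent that reads were divided between copies.

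Hsd3b2 was high in NOD/ShiLtJ and NZO/HlLtJ and low in CAST/EiJ and PWK/PhJ. The 3 libraries held 108.6, 98.7 and 130.5 CPM in NOD/ShiLtJ, 73.1, 54.1 and 94.5 in NZO/HlLtJ, and 37.0, 33.3 and 75.5 in DBA/2J. They held 31.3, 35.6 and 30.2 CPM in A/J, 24.4, 22.8 and 31.3 in 129S1/SvImJ, 17.3, 19.5 and 21.5 in C57BL/6J and 29.9, 15.7 and 12.5 in WSB/EiJ. PWK/PhJ had 6.91, 4.50 and 5.48 CPM and CAST/EiJ 5.23, 4.32 and 3.97. The PWK/PhJ and CAST/EiJ libraries lay below all other libraries, the NOD/ShiLtJ libraries above all others, and the strains in between overlapped in a chain.

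Against C57BL/6J, Hsd3b2 was 5.80-fold higher in NOD/ShiLtJ (log2 fold change 2.54, SE 0.30; edgeR adjusted p 8.55e-07) and 3.81-fold higher in NZO/HlLtJ (1.93, SE 0.29; adjusted p 3.21e-05). In CAST/EiJ it was 0.233 times the C57BL/6J level (-2.10, SE 0.30; adjusted p 8.06e-06) and in PWK/PhJ 0.290 times (-1.79, SE 0.30; adjusted p 7.31e-05). DBA/2J was 2.51-fold higher (1.33, SE 0.29; adjusted p 0.00259), with DBA/2J replicate 4 far above the other libraries of its strain. Without that library the log2 fold change was 0.86 and the edgeR adjusted p 0.0508. In the order of the strain means, the step from WSB/EiJ down to PWK/PhJ passed the test (adjusted p 6.37e-05), and no other pair of neighbours did. Of all 36 pairs of strains, 26 differed, the most of the 9 genes.

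Hsd3b3 was also low in CAST/EiJ and PWK/PhJ, and in 129S1/SvImJ as well, and it was highest in A/J. The 3 libraries held 176.4, 174.9 and 233.9 CPM in A/J, 148.2, 146.1 and 186.8 in NZO/HlLtJ, and 176.1, 134.9 and 140.3 in NOD/ShiLtJ. They held 111.2, 129.7 and 141.4 CPM in WSB/EiJ, 127.0, 118.8 and 131.5 in DBA/2J, and 78.1, 128.5 and 110.0 in C57BL/6J. The values were 31.3, 35.1 and 50.3 CPM in 129S1/SvImJ, 38.9, 33.3 and 19.3 in CAST/EiJ, and 18.1, 7.97 and 9.89 in PWK/PhJ. The strains thus fell on 3 levels, with 6 strains high and linked by overlaps, 129S1/SvImJ and CAST/EiJ lower, and PWK/PhJ below every other library.

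Both steps between these levels passed the test, from C57BL/6J to 129S1/SvImJ (edgeR adjusted p 0.00041) and from CAST/EiJ to PWK/PhJ (0.000386), and no other neighbours passed it. Against C57BL/6J, Hsd3b3 was 0.369 times as high in 129S1/SvImJ (log2 fold change -1.44, SE 0.26), 0.290 times in CAST/EiJ (-1.79, SE 0.27; edgeR adjusted p 1.20e-05) and 0.113 times in PWK/PhJ (-3.14, SE 0.28; adjusted p 6.13e-09). A/J was 1.85-fold higher (0.89, SE 0.26; adjusted p 0.0335). That call was lost without A/J replicate 3 (log2 fold change 0.74, adjusted p 0.142), without C57BL/6J replicate 1 (0.71, 0.18) or replicate 4 (0.92, 0.0745), with the replicate number as a block (0.0508) and in a fit of the 6 libraries of the pair (0.0621). In 129S1/SvImJ, where Hsd3b3 was lower than in C57BL/6J, Hsd3b2 had a log2 fold change of 0.43 (SE 0.28; adjusted p 0.281), and the difference between these 2 values was not tested.

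Hsd3b5 ran against its neighbours in CAST/EiJ and PWK/PhJ, where it was high. The 3 libraries held 33.5, 22.4 and 22.7 CPM in NOD/ShiLtJ, 18.1, 17.6 and 28.8 in PWK/PhJ, and 14.8, 4.05 and 3.09 in CAST/EiJ. They held 6.78, 6.10 and 4.62 CPM in NZO/HlLtJ, 1.74, 0.374 and 3.63 in A/J, and 0.581, 0.205 and 4.08 in C57BL/6J. The values were 1.06, 0.402 and 1.56 CPM in DBA/2J, 0.279, 0.172 and 0.750 in 129S1/SvImJ, and 0.885, 0.161 and 0.0460 in WSB/EiJ. The lowest of these, in WSB/EiJ replicate 4, was 1 count, and C57BL/6J replicate 4 had 97.0 counts against 17 and 5 in the other C57BL/6J libraries. NOD/ShiLtJ and PWK/PhJ lay above all other strains without overlap, and NZO/HlLtJ lay above A/J, C57BL/6J, DBA/2J, 129S1/SvImJ and WSB/EiJ.

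Against C57BL/6J, Hsd3b5 was higher by 4.04 on the log2 scale in NOD/ShiLtJ (SE 0.75; edgeR adjusted p 0.000489), by 3.76 in PWK/PhJ (SE 0.75; adjusted p 0.000519) and by 2.22 in CAST/EiJ (SE 0.73; adjusted p 0.0194). NZO/HlLtJ, with a difference of 1.88 (SE 0.73), did not pass the test (adjusted p 0.0552). Without C57BL/6J replicate 4 the differences were 6.00, 5.71 and 4.18 for NOD/ShiLtJ, PWK/PhJ and CAST/EiJ, with the calls kept. The CAST/EiJ call was lost without CAST/EiJ replicate 1 (1.18, adjusted p 0.248), without C57BL/6J replicate 1 (1.80, 0.0772) or replicate 2 (1.71, 0.0913), with DESeq2 (adjusted p 0.0507) and in the fit of 6 libraries (0.0749). No pair of neighbours in the order of strain means passed the test for Hsd3b5, although 21 of the 36 pairs did.

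The promoters of Hsd3b3 and Hsd3b5 in the RefSeq table (GRCm38.p6, C57BL/6J reference) are shown because these genes, with opposite patterns in CAST/EiJ and PWK/PhJ, start from similar sequence. The aligned stretches, chr3:98763129-98763327 and chr3:98645583-98645784, both on the minus strand, read 5′ to 3′ with the bases that differ in capitals:
Hsd3b3: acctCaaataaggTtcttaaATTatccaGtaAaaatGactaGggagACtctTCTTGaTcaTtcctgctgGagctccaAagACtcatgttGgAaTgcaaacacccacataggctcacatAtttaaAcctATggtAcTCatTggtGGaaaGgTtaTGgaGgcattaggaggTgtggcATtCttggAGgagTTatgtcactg
Hsd3b5: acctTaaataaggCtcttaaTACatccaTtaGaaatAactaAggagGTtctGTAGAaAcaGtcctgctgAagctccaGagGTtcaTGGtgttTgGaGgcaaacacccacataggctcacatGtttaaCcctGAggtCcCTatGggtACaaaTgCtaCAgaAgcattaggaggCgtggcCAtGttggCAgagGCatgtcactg
Of 202 aligned columns 151 were identical (74.8%) and 3 were gaps. The Hsd3b3 stretch ends at the base before the RefSeq start and the Hsd3b5 stretch ends 49 bases before its start, which lies outside the GENCODE gene. The table has 2 entries for Hsd3b3, and the one that starts at the GENCODE gene's end is shown. The best local alignment of the Hsd3b2 promoter covered only 38 columns with that of Hsd3b3 and 31 with that of Hsd3b5. These are sequences of the reference strain, and the alleles of the other strains were not analysed here.

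**Figure D3:**
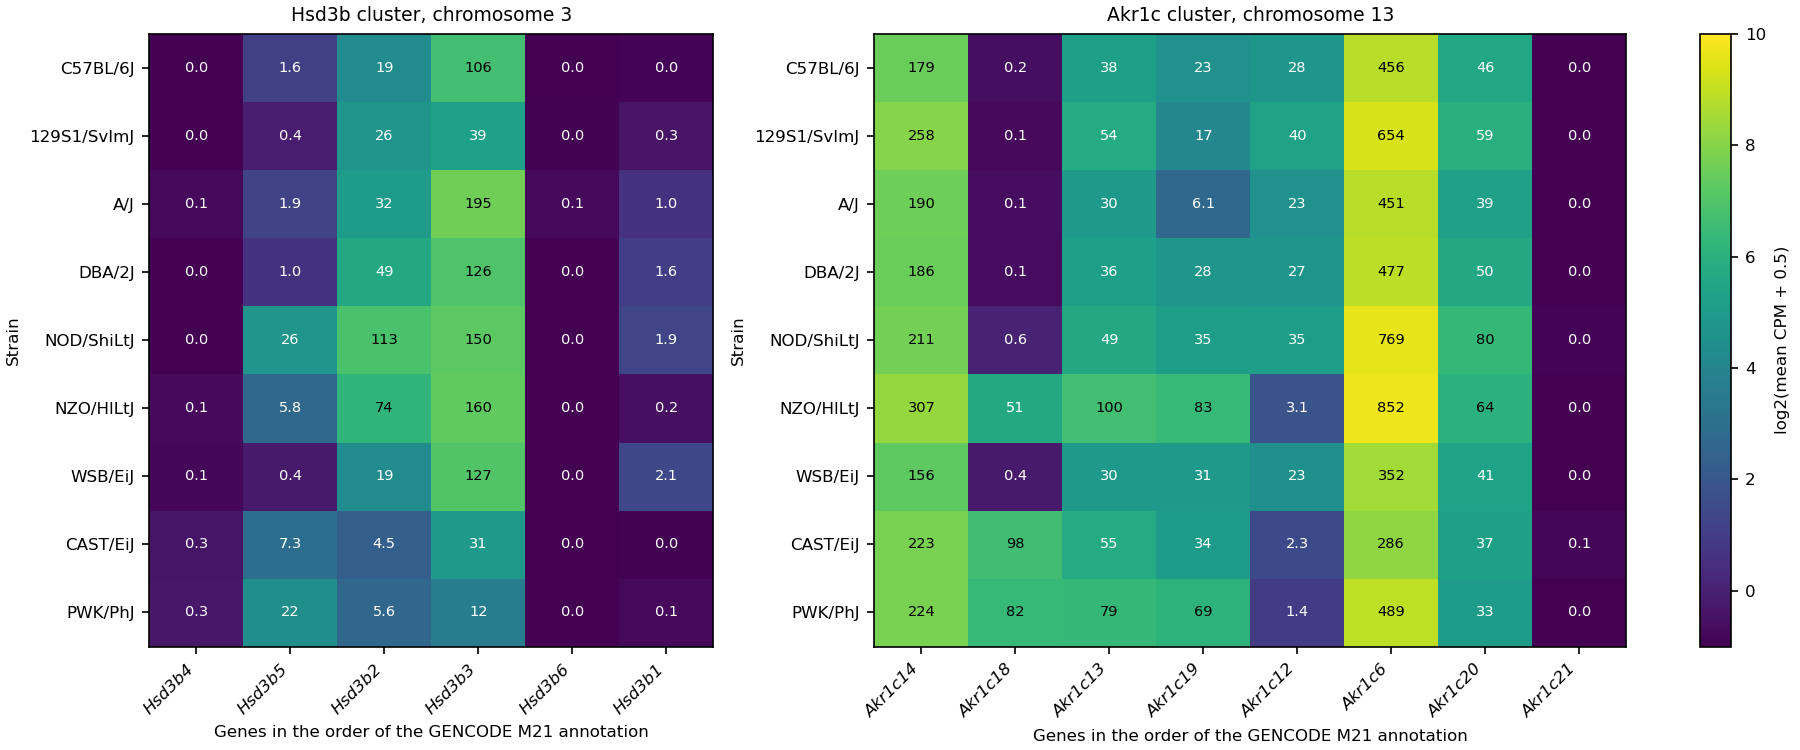
Strain means (CPM, printed in the cells; color, log2 of the mean CPM + 0.5) of the Hsd3b genes on chromosome 3 and the Akr1c genes on chromosome 13, in the order of the annotation, with strains in rows. In CAST/EiJ and PWK/PhJ, Hsd3b2 and Hsd3b3 are low where Hsd3b5 is not, and in NZO/HlLtJ, CAST/EiJ and PWK/PhJ, Akr1c18 is high where Akr1c12 is low.

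The other 4 genes of the Hsd3b family were listed for comparison, with the list chosen when results of these data were known. Hsd3b7, which acts in bile acid synthesis, had a mean of 841.7 ± 94.5 CPM (SD, n = 3) in C57BL/6J and 458.7 ± 55.5 in CAST/EiJ, its highest and lowest strains (edgeR adjusted p for any strain difference 0.00143). Hsd3b1, the form of the adrenal glands and gonads, also differed (adjusted p 5.27e-05) but at low levels, with 2.10 ± 3.15 CPM in WSB/EiJ, where its libraries ran from 0.0460 to 5.73, and 1.92 ± 0.0818 in NOD/ShiLtJ. Hsd3b4 reached 0.328 ± 0.320 CPM in PWK/PhJ and did not pass the test (adjusted p 0.0601). Among the Hsd3b genes whose coding sequences were compared, it was the closest to Hsd3b5, at 95.2% identity. Hsd3b6 was too low to be tested, with a highest strain mean of 0.0913 CPM.

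Hsd11b1 (ENSMUSG00000016194; chr1:193221634-193264075, minus strand) regenerates active corticosterone from its inactive keto form, and was the most abundant of the 9 genes per kb. It was highest in WSB/EiJ, with 1524, 1904 and 1424 CPM, and next in A/J, with 1273, 1170 and 1552. C57BL/6J had 841.4, 934.3 and 963.8 CPM, and NZO/HlLtJ, the lowest strain, 665.5, 752.6 and 806.6. The WSB/EiJ libraries lay above all libraries of C57BL/6J and NZO/HlLtJ but overlapped those of A/J. Of the 8 strains, WSB/EiJ alone passed the test against C57BL/6J for Hsd11b1, at 1.77-fold higher (log2 fold change 0.82, SE 0.18; edgeR adjusted p 0.00259). WSB/EiJ also differed from every other strain except A/J, A/J differed from 129S1/SvImJ, NOD/ShiLtJ and NZO/HlLtJ, and those 10 pairs were all that differed of 36. No pair of neighbours in the order of its strain means passed the test.

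The strains that were high for Hsd11b1 were also those with the highest hepatocyte marker sums, at 278800 to 384800 CPM in A/J and 257500 to 274600 in WSB/EiJ, against 136700 to 144400 in NZO/HlLtJ. Over the 27 libraries the correlation of the log2 level of Hsd11b1 with the log2 marker sum was 0.813, and it was 0.771 for Hsd17b6 and -0.638 for Akr1c14, as a description of libraries that share depth and scaling. The part of the hepatocyte markers in these results was not tested. With library totals in place of the TMM scaling factors, the difference between the highest and the lowest strain mean was 0.65 on the log2 scale for Hsd11b1, in place of 1.12, and 2.41 for Hsd17b6, in place of 2.96.

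H6pd, which supplies the NADPH that Hsd11b1 needs inside the endoplasmic reticulum, had other highest and lowest strains. Its strain means (± SD, n = 3) ran from 283.4 ± 14.6 CPM in NOD/ShiLtJ to 671.4 ± 77.8 in C57BL/6J (edgeR adjusted p 6.47e-05). It was also high in PWK/PhJ (625.1 ± 193.4), and in A/J (579.6 ± 117.1) and WSB/EiJ (567.7 ± 58.3), the strains with the most Hsd11b1. The other 3 listed genes of electron supply also differed among the strains, so that 4 of 4 did, against 74.2% of all genes tested. Por, which passes electrons to the cytochromes P450, was highest in C57BL/6J (616.9 ± 83.0 CPM) and lowest in NZO/HlLtJ (287.7 ± 62.3), Cyb5a was highest in 129S1/SvImJ (734.6 ± 48.8) and lowest in A/J (301.8 ± 83.3), and Cyb5r3 was highest in DBA/2J (354.9 ± 59.4) and lowest in A/J (173.5 ± 22.2). Of 7 known glucocorticoid-responsive genes tested, 2 differed, against 74.2% of all genes tested. They were Fkbp5 (52.5 ± 30.1 CPM in 129S1/SvImJ, 17.8 ± 6.81 in PWK/PhJ; adjusted p 0.00804) and Zbtb16 (8.37 ± 2.80 in 129S1/SvImJ, 3.59 ± 1.69 in A/J; adjusted p 0.0184). Tat, with 1809 ± 353.1 CPM in WSB/EiJ and 777.8 ± 281.2 in A/J, did not pass (adjusted p 0.11), nor did Per1 (adjusted p 0.582). Neither of the genes that passed had its highest level in WSB/EiJ or A/J, the strains with the most Hsd11b1. Tat and Per1 (25.5 ± 16.4 CPM), which did not pass, had their highest means in WSB/EiJ. A link of these genes with Hsd11b1 was not tested.

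Hsd17b2 (ENSMUSG00000031844; chr8:117701904-117759027, plus strand) oxidises estradiol to estrone and testosterone to androstenedione, and so inactivates both. It was highest in CAST/EiJ, with 425.5, 412.0 and 451.0 CPM. C57BL/6J had 183.0, 315.8 and 357.1 CPM, 129S1/SvImJ 164.3, 135.6 and 164.1, and PWK/PhJ, the lowest strain, 173.3, 137.3 and 114.6. The libraries of 129S1/SvImJ and PWK/PhJ lay below all libraries of C57BL/6J and CAST/EiJ, while C57BL/6J and WSB/EiJ, at 189.9 to 456.7 CPM, spread widely.

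Hsd17b2 was 0.497 times the C57BL/6J level in PWK/PhJ (log2 fold change -1.01, SE 0.26; edgeR adjusted p 0.0059) and 0.542 times in 129S1/SvImJ (-0.88, SE 0.26; adjusted p 0.0204). The call in 129S1/SvImJ was lost without 129S1/SvImJ replicate 2 (-0.79, adjusted p 0.0857), without C57BL/6J replicate 2 (-0.80, 0.0749) or replicate 4 (-0.69, 0.131), and with library totals in place of TMM (-0.53, 0.0805). CAST/EiJ, with a log2 fold change of 0.59 (SE 0.26), did not pass the test against C57BL/6J (adjusted p 0.0784) but differed from 6 of the other strains, by 3.03-fold in the means of CAST/EiJ and PWK/PhJ. CAST/EiJ and PWK/PhJ, which both lay below C57BL/6J for Hsd3b2 and Hsd3b3 and above it for Srd5a1, thus held the highest and the lowest level of Hsd17b2. In all, 14 of the 36 pairs differed for Hsd17b2, and no pair of neighbours in the order did.

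Hsd17b6 (ENSMUSG00000025396; chr10:127990936-128007611, minus strand) belongs to the retinol dehydrogenase branch of the family and oxidises hydroxyl groups of androgen metabolites. The 3 libraries held 907.8, 871.3 and 931.0 CPM in A/J, 608.2, 856.9 and 521.9 in WSB/EiJ, and 363.2, 495.3 and 403.3 in DBA/2J. They held 379.0, 291.7 and 394.4 CPM in 129S1/SvImJ, 429.6, 305.5 and 271.5 in C57BL/6J, and 282.0, 309.7 and 322.8 in NOD/ShiLtJ. The values were 259.5, 249.3 and 176.6 CPM in CAST/EiJ, 249.2, 149.2 and 179.3 in PWK/PhJ, and 142.1, 146.8 and 75.3 in NZO/HlLtJ. A/J lay above all other libraries, WSB/EiJ above those of the other 7 strains, and NZO/HlLtJ below all others.

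Against C57BL/6J, Hsd17b6 was 2.69-fold higher in A/J (log2 fold change 1.43, SE 0.25; edgeR adjusted p 0.00026), 1.97-fold higher in WSB/EiJ (0.98, SE 0.24; adjusted p 0.00668) and 0.362 times as high in NZO/HlLtJ (-1.47, SE 0.25; adjusted p 0.000132). PWK/PhJ was 0.574 times as high (-0.80, SE 0.24; adjusted p 0.0169), a call that was lost without C57BL/6J replicate 1 (-0.58, 0.097), PWK/PhJ replicate 2 (-0.65, 0.0991) or PWK/PhJ replicate 3 (-0.75, 0.0603) and in the fit of 6 libraries (0.0553). The WSB/EiJ call was lost without WSB/EiJ replicate 3 (0.76, adjusted p 0.0567). Between neighbours in the order of means, the step from PWK/PhJ to NZO/HlLtJ passed the test (adjusted p 0.0372), and 24 of the 36 pairs differed. Of the 75-base windows of its transcripts, 10.4% were shared with other genes, among them Rdh1, Rdh16f1 and Rdh19, and its counts were not whole in all 27 libraries.

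Of the other genes of the Hsd17b and Hsd11b families, 5 of 7 tested differed among the strains (adjusted p under 0.05), a share close to the 74.2% of all genes tested. Hsd17b7, which also acts in cholesterol synthesis, had 106.5 ± 36.8 CPM (SD, n = 3) in C57BL/6J and 19.9 ± 1.08 in CAST/EiJ. Hsd17b13, a lipid droplet enzyme, had 1072 ± 142.6 CPM in WSB/EiJ and only 313.4 ± 28.6 in NZO/HlLtJ, the same lowest strain as for Hsd17b6. Hsd17b11, another lipid droplet enzyme, had 294.6 ± 92.2 CPM in PWK/PhJ and 115.4 ± 10.6 in NZO/HlLtJ, and the mitochondrial Hsd17b10 had 107.0 ± 12.1 in PWK/PhJ and 45.5 ± 1.11 in A/J.

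Akr1c6 (ENSMUSG00000021210; chr13:4434306-4457877, plus strand) and Akr1c14 (ENSMUSG00000033715; chr13:4049011-4090688, plus strand) are aldo-keto reductases of the same gene cluster. Akr1c6 interconverts keto and hydroxyl forms of estrogens and androgens, and Akr1c14 reduces dihydrotestosterone and related steroids. Their coding sequences, of 969 bases each, were 76.4% identical, and none of the 75-base windows of Akr1c6 and 5.06% of those of Akr1c14 were found in another gene. The last 160 bases before their RefSeq starts (GRCm38.p6, plus strand), chr13:4434183-4434342 and chr13:4059431-4059590, are printed because their levels moved together from library to library, with matches to CCAAT on either strand in capitals. The RefSeq start of Akr1c14 lies inside the GENCODE gene. The stretches read 5′ to 3′:
Akr1c6: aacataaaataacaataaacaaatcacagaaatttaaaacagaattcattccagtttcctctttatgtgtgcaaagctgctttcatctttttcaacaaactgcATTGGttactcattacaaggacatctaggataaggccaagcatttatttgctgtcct
Akr1c14: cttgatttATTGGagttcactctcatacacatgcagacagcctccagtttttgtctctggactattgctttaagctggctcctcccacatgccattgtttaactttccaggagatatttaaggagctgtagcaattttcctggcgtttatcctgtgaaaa
CCAAT, searched over both strands in the 250 bases before each start with no overlap with another motif considered, was present once in each, and in 33.9% of all 32851 promoters of the table. The 2 promoters aligned over only 50 columns, with 35 identical.

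Akr1c6 was highest in NZO/HlLtJ, with 847.4, 923.0 and 784.5 CPM, and in NOD/ShiLtJ, with 717.8, 741.8 and 848.7. C57BL/6J had 545.3, 474.1 and 349.5 CPM, and CAST/EiJ, the lowest strain, 383.4, 256.9 and 217.4. NZO/HlLtJ and NOD/ShiLtJ lay above all libraries of the other 7 strains, and CAST/EiJ overlapped C57BL/6J.

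Against C57BL/6J, Akr1c6 was 1.87-fold higher in NZO/HlLtJ (log2 fold change 0.90, SE 0.25; edgeR adjusted p 0.0105) and 1.69-fold higher in NOD/ShiLtJ (0.75, SE 0.25; adjusted p 0.0428), and 0.627 times as high in CAST/EiJ (-0.67, SE 0.25; adjusted p 0.0368). The NZO/HlLtJ call was lost without C57BL/6J replicate 4 (0.74, adjusted p 0.0735). The NOD/ShiLtJ call was lost in 11 of the 27 fits that left out a library: without C57BL/6J replicate 4 (0.59, 0.214) or replicate 2 (0.78, 0.0912), NOD/ShiLtJ replicates 3 (0.68, 0.137), 2 (0.79, 0.0792) or 1 (0.80, 0.0698), and, at adjusted p 0.0502 to 0.0526, 129S1/SvImJ replicates 1 or 2, CAST/EiJ replicate 4, DBA/2J replicate 2 and NZO/HlLtJ replicates 1 or 2. The CAST/EiJ call was lost without C57BL/6J replicates 1 (-0.52, 0.132) or 2 (-0.64, 0.0885), CAST/EiJ replicates 4 (-0.60, 0.118) or 5 (-0.51, 0.166), with library totals (-0.35, 0.365), with the replicate block (-0.53, 0.186) and in the fit of 6 libraries (0.0544). Of the 36 pairs of strains 16 differed for Akr1c6, and no neighbours in the order did.

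Akr1c14 had the smallest difference between its highest and lowest strain mean, 1.01 on the log2 scale. With library totals in place of the TMM factors it was 1.58, and Hsd11b1 then had the smallest. NZO/HlLtJ had 266.7, 324.8 and 328.8 CPM, C57BL/6J 227.0, 171.3 and 138.4, and WSB/EiJ, the lowest strain, 123.1, 136.0 and 209.7. The NZO/HlLtJ libraries lay above those of C57BL/6J and WSB/EiJ, and WSB/EiJ and C57BL/6J overlapped. NZO/HlLtJ alone passed the test against C57BL/6J, at 1.71-fold higher (log2 fold change 0.78, SE 0.23; edgeR adjusted p 0.0143), and that call was lost without C57BL/6J replicate 2 (0.75, 0.0514) or replicate 4 (0.62, 0.0955). For Akr1c14, 5 of 36 pairs of strains differed. The adjusted p of its strain effect was 0.0154 and reached 0.0497 when a library was left out.

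Around their own strain means, the libraries that were high in Akr1c6 were also high in Akr1c14: the correlation of the deviations, on the log2 CPM scale, was 0.801 over the 27 libraries. Hsd17b2 deviated the other way from Akr1c14, with a correlation of -0.832, as did Hsd11b1 from Akr1c6 (-0.776) and Srd5a1 from Akr1c14 (-0.705). Hsd17b2 and Srd5a1 deviated together (0.693). The pattern was not particular to Akr1c6 and Akr1c14. Outside the 9 genes, Akr1c14 also deviated together with Akr1c13 (0.857), Akr1c20 (0.786) and Akr1d1 (0.714). It did so less with Akr1c18 (0.277), and it deviated the other way from Hsd3b7 (-0.708). These coefficients describe libraries that share depth and scaling within each strain, they carry no p, and what set the libraries of a strain apart was not tested. The chromosome 3 genes showed less of this, at 0.311 for Hsd3b2 with Hsd3b3 and 0.470 for Hsd3b2 with Hsd3b5.

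**Figure D4:**
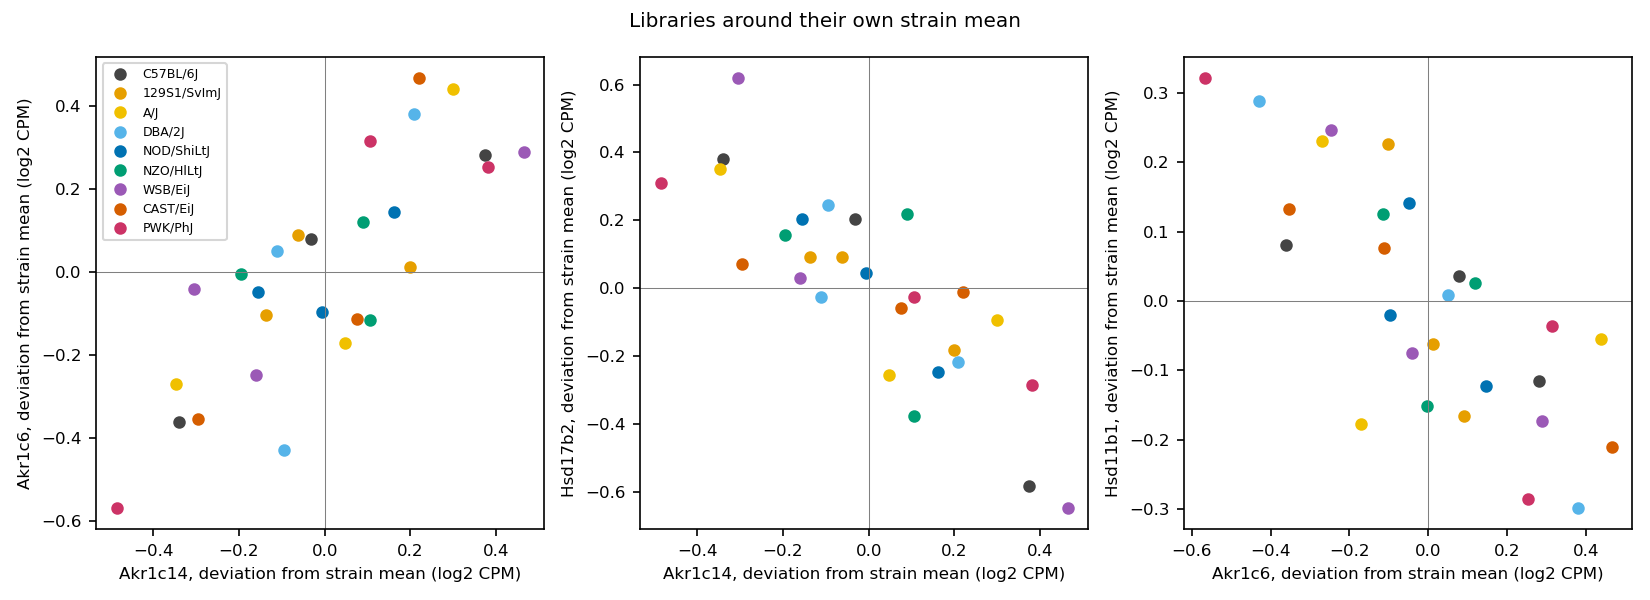
Deviation of each library from the mean of its strain (log2 CPM) for Akr1c6 against Akr1c14, Hsd17b2 against Akr1c14 and Hsd11b1 against Akr1c6; each point is a library, colored by strain. The points rise together in the first panel (r = 0.801 over 27 libraries) and run in opposite directions in the others (r = -0.832 and -0.776).

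Between Akr1c6 and Akr1c14 on chromosome 13 lie copies with wider strain differences, and all 8 tested genes of the other Akr1c, Akr1d and Srd5a list differed, against 74.2% of all genes tested. Akr1c18, which inactivates progesterone, had 97.9 ± 9.38 CPM (SD, n = 3) in CAST/EiJ, 81.5 ± 31.7 in PWK/PhJ and 50.8 ± 5.62 in NZO/HlLtJ, and at most 0.559 ± 0.256 in the other strains (edgeR adjusted p 1.32e-19). Akr1c12 was low in the same 3 strains, at 2.31 ± 0.382, 1.42 ± 0.212 and 3.10 ± 0.440 CPM, against 22.5 to 40.1 in the other 6 (adjusted p 1.90e-15). Its counts were not whole in all 27 libraries, and its coding sequence is 96.2% identical to that of Akr1c13. Akr1c13, named after its values were seen, was highest in these 3 strains, at 100.2 ± 14.0 CPM in NZO/HlLtJ, 78.7 ± 20.5 in PWK/PhJ and 54.6 ± 2.39 in CAST/EiJ, the last close to 54.2 ± 5.92 in 129S1/SvImJ, and how reads were divided between the 2 copies was not tested. Akr1c19 was highest in NZO/HlLtJ (82.9 ± 7.10 CPM) and lowest in A/J (6.14 ± 1.18). Akr1c6 was highest in NZO/HlLtJ and lowest in CAST/EiJ, so it did not follow this division of the strains. For Akr1c14, NZO/HlLtJ, PWK/PhJ and CAST/EiJ were among the 4 strains with the highest means, and its strain means correlated with those of Akr1c18 at 0.519 over 9 strains, as a description.

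Srd5a1 (ENSMUSG00000021594; chr13:69573449-69611442, minus strand) set CAST/EiJ and PWK/PhJ apart from the other strains. The 3 libraries held 217.3, 121.3 and 180.9 CPM in CAST/EiJ and 212.4, 153.2 and 142.8 in PWK/PhJ. They held 61.7, 84.6 and 52.6 CPM in DBA/2J, 69, 58.6 and 26.2 in WSB/EiJ, 37.1, 47.2 and 61.6 in C57BL/6J, and 46.3, 34.8 and 54.2 in NZO/HlLtJ. The values were 38.1, 32.5 and 59.3 CPM in A/J, 39.7, 39.4 and 38.0 in NOD/ShiLtJ, and 33.2, 35.9 and 47.6 in 129S1/SvImJ. All CAST/EiJ and PWK/PhJ libraries lay above all libraries of the other 7 strains, most of which overlapped, while the DBA/2J libraries lay above those of NOD/ShiLtJ and 129S1/SvImJ.

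Against C57BL/6J, Srd5a1 was 3.56-fold higher in CAST/EiJ (log2 fold change 1.83, SE 0.30; edgeR adjusted p 4.09e-05) and 3.49-fold higher in PWK/PhJ (1.80, SE 0.30; adjusted p 7.25e-05). The step from PWK/PhJ to DBA/2J passed the test (adjusted p 0.00134), and no other neighbours passed it. All 14 pairs that differed, of 36, set CAST/EiJ or PWK/PhJ against another strain, and the difference between those 2 strains did not pass the test (adjusted p 0.951). Neither call against C57BL/6J was lost in any of the 27 fits that left out a library or under the other settings. Of the 75-base windows of its transcripts, 14.4% were also found in the predicted gene Gm17108, and the counts were not whole in 26 libraries.

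The 250 bases before the RefSeq start of Srd5a1 (GRCm38.p6, minus strand, chr13:69611464-69611713) are printed because its promoter was unlike those of the other genes in base composition, with matches to the GC box GGGCGG in capitals:
Srd5a1: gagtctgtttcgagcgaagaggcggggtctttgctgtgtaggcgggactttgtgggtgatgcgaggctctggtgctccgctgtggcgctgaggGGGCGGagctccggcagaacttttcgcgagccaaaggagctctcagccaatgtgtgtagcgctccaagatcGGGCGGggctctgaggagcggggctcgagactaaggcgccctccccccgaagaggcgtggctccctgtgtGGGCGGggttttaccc
The 3 matches begin 157, 86 and 16 bases before the start, and GGGCGG on either strand was present in 32.7% of the 32851 promoters. The stretch held 20 CpG dinucleotides, against a median of 6 over all promoters and 0 to 6 in the promoters of the other 7 genes found in the table. The motif TTCNNNGAA, of the type bound by STAT5, was in none of the promoters of the 8 genes and in 7.02% of all promoters, and CAAAGTNCA, of the type bound by HNF4, was in that of Hsd3b5 and in 1.19% of all. A match is a description of these letters in the reference and does not show binding.

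Srd5a2, the related reductase of the prostate, differed among the strains at low levels. It had a highest strain mean of 1.38 ± 0.467 CPM in A/J, and 12 of the 27 libraries had no count of it, which allows up to 3 counts in each. Those 12 were all the libraries of 129S1/SvImJ, NOD/ShiLtJ, CAST/EiJ and PWK/PhJ. The other strains had means from 0.729 CPM in C57BL/6J upwards, and none of their libraries was at 0. Srd5a3, named after its values were seen, had its lowest level in CAST/EiJ at 3.64 ± 0.369 CPM (SD, n = 3) and its highest in NOD/ShiLtJ at 13.2 ± 1.14. The estrogen receptor Esr1 had 59.3 ± 16.1 CPM in CAST/EiJ and 30.4 ± 2.75 in NOD/ShiLtJ (adjusted p 0.00973). The glucocorticoid receptor Nr3c1, at 57.9 to 72.2 CPM, and the mineralocorticoid receptor Nr3c2 did not pass the test (adjusted p 0.18 and 0.0778).

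Set against C57BL/6J, the strains differed in how many of the 9 genes were called. PWK/PhJ had 6 (26.2% of all tested genes were called in that comparison), CAST/EiJ 5 (38%), NZO/HlLtJ 4 (29.3%), NOD/ShiLtJ 3 (15.9%), 129S1/SvImJ 2 (20.9%), A/J 2 (7.84%), WSB/EiJ 2 (13.6%) and DBA/2J 1 (9.06%). The 8 comparisons share the C57BL/6J libraries. In PWK/PhJ, Hsd3b2, Hsd3b3, Hsd17b2 and Hsd17b6 were lower and Hsd3b5 and Srd5a1 higher. In CAST/EiJ, Hsd3b2, Hsd3b3 and Akr1c6 were lower and Hsd3b5 and Srd5a1 higher. In NZO/HlLtJ, Hsd3b2, Akr1c6 and Akr1c14 were higher and Hsd17b6 lower, and in NOD/ShiLtJ Hsd3b2, Hsd3b5 and Akr1c6 were higher.

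**Figure D5:**
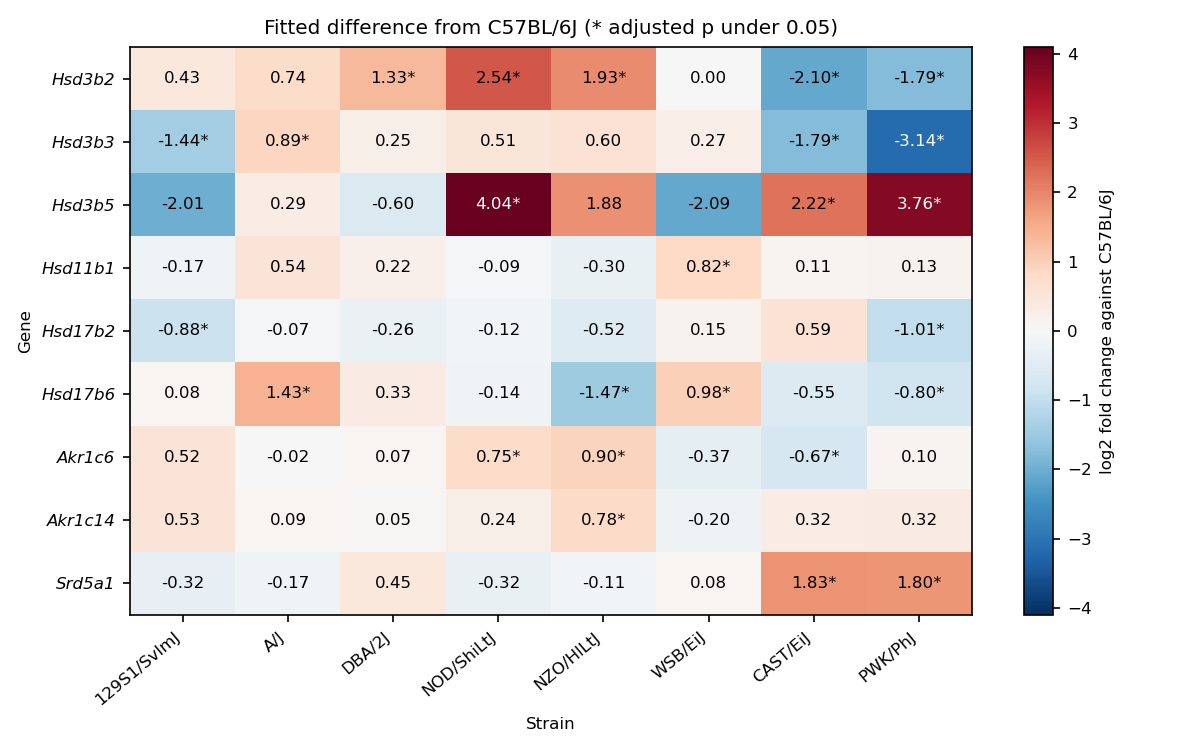
Fitted log2 fold change of each of the 9 genes (rows) in each strain (columns) against C57BL/6J, with an asterisk where the edgeR adjusted p was under 0.05; red is higher and blue lower than C57BL/6J. PWK/PhJ has 6 asterisks and DBA/2J 1, and Hsd3b5 holds the value farthest from 0 (4.04 in NOD/ShiLtJ).

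Over the 8 comparisons 15 calls were higher and 10 lower than C57BL/6J. With library totals in place of the TMM factors there were 22 higher and 8 lower. That scaling put the median log2 fold change of all genes at 0.335 in 129S1/SvImJ, -0.145 in A/J, 0.309 in CAST/EiJ, 0.106 in DBA/2J, 0.232 in NOD/ShiLtJ, 0.409 in NZO/HlLtJ, 0.172 in PWK/PhJ and -0.166 in WSB/EiJ. Under that scaling the split for 129S1/SvImJ was 2 higher and 1 lower in place of 0 and 2, that for CAST/EiJ 4 and 2 in place of 2 and 3, and that for NZO/HlLtJ 5 and 1 in place of 3 and 1. Single libraries decided some counts: the count was 1 for 129S1/SvImJ without its replicate 2 or C57BL/6J replicate 2 or 4, 1 for A/J without its replicate 3 or C57BL/6J replicate 1 or 4, 3 for CAST/EiJ without C57BL/6J replicate 1 or 2, 0 for DBA/2J without its replicate 4 and 1 for WSB/EiJ without its replicate 3. 

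Across all 36 pairs of strains, 151 of the 324 comparisons of the 9 genes were called, and pairs with CAST/EiJ or PWK/PhJ held the most. The share of all genes called in a pair ran from 7.84% (A/J against C57BL/6J) to 42.4% (CAST/EiJ against A/J). Against CAST/EiJ, 7 of the 9 genes were called in A/J (42.4% of all genes) and DBA/2J (32.2%), 6 in WSB/EiJ (36.6%), NOD/ShiLtJ (27.6%) and NZO/HlLtJ (27%), 5 in 129S1/SvImJ (25%) and 3 in PWK/PhJ (34.1%). Against PWK/PhJ, 7 were called in WSB/EiJ (31.5%), 6 in NZO/HlLtJ (34%), A/J (32.9%) and DBA/2J (26.4%), and 5 in 129S1/SvImJ (30.7%) and NOD/ShiLtJ (27.8%). The shares of the 9 genes were above those of all genes in these pairs, except that PWK/PhJ and CAST/EiJ differed in 3 genes, close to the share of all genes.

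Among the other strains, WSB/EiJ differed from 129S1/SvImJ (26.1% of all genes) and NZO/HlLtJ (33.5%) in 6 of the 9 genes, from NOD/ShiLtJ (22.7%) in 5 and from DBA/2J (13.8%) in 2. A/J differed from NZO/HlLtJ (36.1%) and NOD/ShiLtJ (19.4%) in 5, from 129S1/SvImJ (28.6%) in 4 and from DBA/2J (10.9%) in 1. NZO/HlLtJ differed from 129S1/SvImJ (9.93%) and DBA/2J (14.2%) in 4 and from NOD/ShiLtJ (10.4%) in 2. NOD/ShiLtJ differed from 129S1/SvImJ (9.85%) in 3 and from DBA/2J (10.2%) in 2, and DBA/2J differed from 129S1/SvImJ (14.6%) in 2. WSB/EiJ and A/J, which both had high Hsd11b1 and Hsd17b6, differed in 0 of the 9 by edgeR (14.5% of all genes), while 3 had an unadjusted p under 0.05 and DESeq2 called 0.

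The strain means of the genes did not follow a shared order. Over the 9 strain means on the log2 CPM scale, as a description, Hsd3b2 correlated with Hsd3b3 at 0.793 and with Srd5a1 at -0.823, and Hsd11b1 correlated with Hsd17b6 at 0.778 and with Akr1c14 at -0.813. Hsd3b5 had coefficients of -0.005 with Hsd3b2 and -0.300 with Hsd3b3, its neighbours. These coefficients rest on 9 points that share the libraries and their scaling.

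Among 6077 named protein-coding genes with a mean of at least 10 CPM (6078 for Hsd3b5), the genes whose log2 level was most like each of the 9 over the 27 libraries were found by Pearson correlation. They were Camk1d (0.883) and Enho (0.881) for Hsd3b2, Serpina1c (0.939) and Whamm (0.888) for Hsd3b3, and Actb (0.754) and Mrps18a (0.724) for Hsd3b5. For Hsd11b1 they were Slc6a13 (0.927) and Ebpl (0.907), for Hsd17b2 Apon (0.797) and Slc22a7 (0.776), and for Hsd17b6 Rnf128 (0.822) and Scarb1 (0.817). For Akr1c6 they were Xrcc5 (0.900) and Nicn1 (0.891), for Akr1c14 Nadk2 (0.913) and Ndufs4 (0.891), and for Srd5a1 Tmem41a (0.862) and Cyp4a12b (0.862). None of these 18 lies in the Hsd3b or Akr1c cluster, and Ndufs4 lies on chromosome 13 with Akr1c6, Akr1c14 and Srd5a1.

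Because Hsd3b5 is known as male-predominant, a list of other genes known as male-predominant in mouse liver was examined in these female mice. All 12 genes of the list differed among the strains, against 74.2% of all genes, with a median difference between highest and lowest strain mean of 4.87 on the log2 scale. Cyp4a12b, a male-predominant fatty acid hydroxylase, had 198.0 ± 113.0 CPM (SD, n = 3) in PWK/PhJ and 47.8 ± 36.8 in CAST/EiJ, the strains with the most Srd5a1, and at most 0.378 ± 0.479 in the others. Cyp4a12a was highest in CAST/EiJ (32.9 ± 35.8), where its libraries spread widely, and lowest in C57BL/6J (0.139 ± 0.128). The counts were not whole in 26 libraries for Cyp4a12b and in 25 for Cyp4a12a. How reads were divided between copies was not tested. Mup20, a male pheromone protein of urine, was highest in PWK/PhJ (117.6 ± 90.6) but lowest in CAST/EiJ (0.0998 ± 0.0920), and Susd4 was highest in CAST/EiJ (30.1 ± 9.64). NOD/ShiLtJ, the strain with the most Hsd3b5, had only 0.0873 ± 0.122 CPM of Cyp4a12b, while PWK/PhJ and CAST/EiJ, the strains next highest in Hsd3b5, were the highest in Cyp4a12b. Other genes of the list, named after their values were seen, had other orders. Slco1a1 was highest in NOD/ShiLtJ (573.8 ± 58.9 CPM). Cyp2d9 and Elovl3 were highest in A/J and lowest in PWK/PhJ (19.5 ± 12.3 and 1.69 ± 0.518 CPM).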

How the data were processed

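RNA of hepatocytes from female mice was measured as 27 libraries, 3 for each of 9 strains. Per the labels' protocols, mRNA was captured by its poly(A) tail on oligo-dT beads before library preparation with the TruSeq RNA kit v2, and no strand setting is stated. The values the authors deposited are estimated counts (expected counts, 14.7% of them not whole) for 43346 Ensembl genes. Per the submitters' processing notes, FastQC 0.11.5, DESeq2 and the genome build GRCm38 (mm10) were used. The aligner, the counting program, the annotation and whether reads of each strain were aligned to its own genome are not given in the sources used here, so reads divided between near-identical genes, or lost from strains far from the reference, could change the levels.

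Symbols came from GENCODE M21 and matched 42462 IDs, and the other IDs held 0.0579% of counts. The 9 genes, the comparison lists and the rules were chosen with earlier results of these data known. Counts were rounded, which changed library totals by at most 0.00026%. Totals were 17015956 to 35078511. In edgeR 4.0.16 (limma 3.58.1, R 4.3.3), genes were filtered with filterByExpr by strain, which left 14482, and scaled by the trimmed mean of M values (TMM; factors 0.722 to 1.23). A quasi-likelihood model of strain was fitted to all 27 libraries, with an F test over strains and a test of each pair, and Benjamini-Hochberg adjustment over all 14482 genes at 0.05. The script was tested on simulated data with known fold changes. Correlations were taken on log2 CPM, to which a prior count of 2 had been added. Pairs of libraries of a strain differed by 18.7 to 101 times the sampling variance, so none was counted as a duplicate.

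All 9 genes are described. Of each comparison list, the 4 genes with the widest strain differences among those with at least 1 CPM in a strain were named, and all of the other Hsd3b genes. A gene that this rule would name is not reported here. The genes most like each of the 9 were the 2 with the highest Pearson correlation among those with a mean of at least 10 CPM. Alternatives were DESeq2 1.42.0, median-of-ratios scaling, no filter (23822 genes), a mean of at least 10 counts (13014 genes), the replicate number as a block, counts not rounded, the 6 libraries of a pair alone, prior counts of 0.5 and 5, leaving out each library and, added after seeing the data, library totals with no scaling factor. Promoter and coding sequences came from RefSeq (GRCm38.p6) and the GENCODE transcripts. Hsd17b2 had no promoter entry. Sequences were compared with Biopython 1.88.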

Additional observations from a re-analysis of the deposited data

How the results depend on the processing

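Of the 25 calls against C57BL/6J, leaving out each of the 27 libraries in turn gave 675 log2 fold changes, of which 643 stayed called, 32 lost the call and 0 changed sign. The other settings gave 200, of which 191 stayed called, 9 lost the call and 0 changed sign, and the strain effect of all 9 genes passed the test in every fit (9 of 9). Over the fits that left out a library, the count of called genes ranged from 1 to 3 for 129S1/SvImJ and A/J. It ranged from 3 to 6 for CAST/EiJ, from 0 to 1 for DBA/2J and from 1 to 2 for WSB/EiJ. For PWK/PhJ it was 5 to 6, for NZO/HlLtJ 3 to 5 and for NOD/ShiLtJ 2 to 3. In the fit of the 6 libraries of the pair alone, CAST/EiJ had 3 called genes in place of 5, with fewer samples to estimate the spread.

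With the replicate number as a block, A/J had 1 called gene in place of 2, and the cause was not tested. The numbers did not pair the libraries: the 76 pairs of libraries with the same number had a mean correlation of deviations of 0.01 (lowest -0.293), 59 of them at or under 0.1, and 7 of 27 libraries were closest to their own number. With the block, 9350 genes in place of 10746 differed among the strains, and 138 in place of 151 of the 324 pair comparisons of the 9 genes were called.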

Other observations

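Genes known as female-predominant in mouse liver, which the growth hormone pattern of females raises, also varied among these female mice: all 15 differed among the strains, against 74.2% of all genes, with a median difference between the highest and the lowest strain mean of 4.96 on the log2 scale. Cyp2b9, a cytochrome P450, had 1543 ± 66.5 CPM (SD, n = 3) in WSB/EiJ and 2.49 ± 0.552 in 129S1/SvImJ. Cyp2b13, its neighbour in the same family, had 530.7 ± 206.8 CPM in DBA/2J and 2.54 ± 0.879 in 129S1/SvImJ. The counts were not whole in 26 libraries for Cyp2b9 and in all 27 for Cyp2b13. How reads were divided between copies was not tested. Cyp17a1, which makes androgens in the gonads, had 655.6 ± 159.4 CPM in WSB/EiJ and 10.9 ± 12.3 in NZO/HlLtJ. A1bg, a plasma protein, had 4985 ± 5252 CPM in WSB/EiJ, where its libraries ran from 152.1 to 10570, and 31.9 ± 13.9 in 129S1/SvImJ.

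Of 9 genes of growth hormone signalling, 6 differed among the strains, a share close to the 74.2% of all genes tested. Onecut1, a transcription factor, had 47.9 ± 19.6 CPM (SD, n = 3) in NZO/HlLtJ and 6.73 ± 4.22 in C57BL/6J (edgeR adjusted p 0.00939). Socs2, which feeds back on the receptor, had 30.7 ± 4.95 CPM in NZO/HlLtJ and 6.92 ± 3.39 in PWK/PhJ (adjusted p 0.00291). Bcl6, a repressor known as higher in male liver, had 25.6 ± 0.572 CPM in PWK/PhJ and 3.90 ± 0.587 in WSB/EiJ but did not pass the test (adjusted p 0.0627), nor did Cish, with 20.0 ± 6.60 CPM in NZO/HlLtJ and 3.24 ± 1.22 in 129S1/SvImJ (adjusted p 0.0647).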
